A study of Gallus gallus with 8 samples.

Results

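The endoderm of the chicken yolk sac was compared between embryonic day 2 and embryonic day 1 across the whole transcriptome array. The series held 8 arrays and ran from day 1 to day 4. The comparison is between 4 of them, the 2 titled as day 2 endoderm and the 2 titled as day 1 endoderm. All 8 arrays entered the normalization and the fit. Each SE and p-value therefore also rests on how far the replicates of the later days differ. The control probe sets of the manufacturer were dropped, and the genes described below go beyond the serum proteins and globins. Fertilized hen eggs were incubated at 38 °C, and the labels name no genotype, strain or treatment that differs between the groups beyond the day of incubation. Each of the 4 samples was a pool of tissue taken at 4 h intervals through its day, so a sample of day 1 or day 2 averages over a period in which the embryo changes shape. The yolk sac was dissected, treated for 5 min with dispase, an enzyme that loosens cell layers, and the endoderm was peeled from the mesoderm. For each array 5 µg of total RNA was labelled with biotin. The source field of the day 1 samples names the yolk sac without naming the endoderm, while their titles and tissue fields name the endoderm. As the replicates are pools and nothing states that they came from separate batches of eggs, the p-values reflect only how far pooled samples differ from each other.

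The yolk sac endoderm is the epithelium that lies against the yolk. It takes up yolk lipid and protein by endocytosis at a brush border, digests them, and passes lipoproteins, plasma proteins, sugars and amino acids to the vessels that form in the mesoderm beneath it, so that it serves the early embryo as both gut and liver. On day 1 the primitive streak forms and the sheet of endoderm still spreads over the yolk, and on day 2 blood islands and the first vessels appear in the area vasculosa. RNA levels below are signals of the array in arbitrary units, brought to one distribution over the 8 arrays by quantile normalization, with values on the 2 arrays of a day given as replicate 1, then replicate 2. A change is a difference of log2(signal + 16), day 2 minus day 1, with its SE, from a linear model fitted with limma over all 23063 probe sets kept by a filter on mean signal. A gene was called higher or lower at a Benjamini-Hochberg adjusted p under 0.05, and adding 16 understates the changes of genes with low signal.

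Several endoderm markers were high on all 4 arrays, while 2 of 13 were below 16 on each day 1 array and 1 on each day 2 array. TTR, for transthyretin, stood at 9459.8 and 9003 on day 1 and 9529.5 and 9319 on day 2, APOA1, for the main protein of high density lipoprotein, at 9559 and 8534 on day 1 and 9559 and 9909.8 on day 2, and APOB, for the structural protein of very low density lipoprotein, at 7609.9 and 6134 on day 1 and 9991 and 9859 on day 2. HNF4A, a transcription factor of absorptive and hepatic epithelium, stood at 1384 and 950.3 on day 1 and 1140.2 and 2287 on day 2, while the endoderm factor GATA4 was near the filter signal, at 17.6 to 27.2. SOX17, an early endoderm factor, had signals of 1397 and 1225 on day 1 and 261 and 773 on day 2, groups that did not overlap but did not pass the test (adjusted p = 0.47). Of the 12 endoderm markers that passed the filter, 4 were called higher, namely AFP, CUBN, LRP2 and APOB, and 0 lower. Over all genes 5.27% were called higher. As deposited 1 of them was called higher, and 2, 1, 3 and 1 were with each array left out, in the order day 1 replicates 1 and 2 and day 2 replicates 1 and 2. The summed signal of the 13 endoderm markers on the array was 34054 and 29384 on day 1 and 40440 and 44386 on day 2. Most of each sum came from TTR, APOA1 and APOB, so it says little about the other markers.

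Markers of the mesoderm differed between the replicates of day 2. Those of day 3 differed the same way. The 18 markers of mesoderm, mesothelium and muscle summed to 12880 on day 2 replicate 1 and 565 on day 2 replicate 2, against 3267 and 4039 on day 1. The fibrillar collagen gene COL3A1 had 77.5 and 29.1 on day 1 and 4672 and 37.4 on day 2, and COL1A1 had 96.3 and 91.1 on day 1 and 2751 and 41.8 on day 2. On day 3 the mesoderm markers summed to 4929 on replicate 1 and 603 on replicate 2, with COL3A1 at 1481 and 67.8. Summed over the 14 endothelial markers, the signal was 3067 and 412 on day 2 against 1637 and 886 on day 1, and CDH5, for VE-cadherin of vessel walls, stood at 899 and 317 on day 1 and 1106 and 9.27 on day 2. On day 2 replicate 2, 12 of the 18 mesoderm markers and 9 of the 14 endothelial markers were below 16, among them CDH5. Erythroid markers, 12 on the array, summed to 51856 and 40354 on day 2 against 5003 and 1897 on day 1; they were high on both day 2 arrays. Primitive streak markers summed to 2769 and 4074 on day 1 and 1353 and 206 on day 2, markers of epiblast and germ cells to 1005 and 1938 and then 390.4 and 398, and neural markers to 531 and 1049 and then 200.2 and 101. Leukocyte markers summed to 241 to 326 on all 4 arrays and those of ectoderm and epidermis to 1586 and 1274 on day 1 and 547 and 401 on day 2. In bulk tissue, fewer cells of a type and less RNA per cell cannot be told apart.

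**Figure D1:**
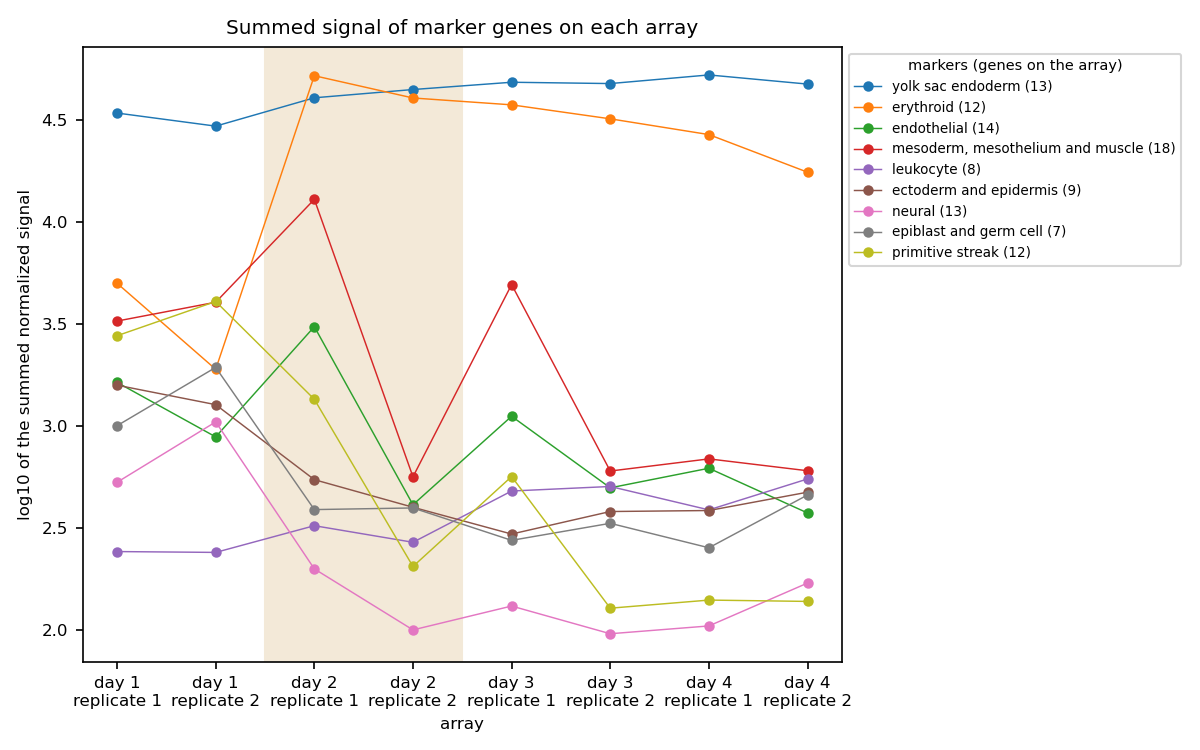
Summed quantile-normalized signal of each marker list (y axis, log10) on each of the 8 arrays (x axis), with the day 2 arrays shaded and the number of genes of each list on the array in brackets. The mesoderm list stands at 12880 on day 2 replicate 1 and 565 on day 2 replicate 2, and at 4929 and 603 on the day 3 arrays, while the endoderm list lies between 29384 and 52318 on all arrays. On days 1 and 2 most of the endoderm sum comes from TTR, APOA1 and APOB.

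The replicates of day 2 differed more than those of day 1. The SD over genes of the log2 difference between replicates was 0.68 on day 2 and 0.38 on day 1, and the correlations of log2 signals were 0.943 and 0.977. Of the 10541 genes tested, 173 were more than 4-fold higher on day 2 replicate 1 than on replicate 2, and 19 the reverse, against 5 and 2 on day 1. The deposited signals were also not on one level: their means, trimmed by 2% at both ends, came to 106 and 170 for day 1 and 106 and 90.0 for day 2. The beta-actin 3'/5' ratio, an index of RNA integrity, was 2.91 and 1.498 for day 1 and 1.74 and 3.77 for day 2. The same ratio for GAPDH was 1.40 and 1.05 for day 1 and 1.08 and 1.18 for day 2, so it was highest on day 1 replicate 1. The part of these differences in the results was not tested beyond the values without each array that stand beside them.

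Many more genes changed than the serum proteins and globins. Of the 10541 genes, each represented by its brightest probe set, 555 were called higher on day 2 (5.27%) and 288 lower (2.73%). Counted by probe set there were 854 rises and 470 falls, so 64.5% of the calls were rises. On the signals as deposited, 251 genes were higher (2.38%) and 480 lower (4.55%), and over probe sets 371 and 860, or 30.1% rises. Of the probe sets called after quantile normalization, 364 rises and 412 falls were also called as deposited. The balance of rises and falls thus depended on the scale, and the median change of all genes moved with it, from -0.04 after quantile normalization to -0.44 as deposited. The medians of gene lists below are therefore given relative to the median of all genes on the same scale, with the deposited value second. With each array left out in turn, in the order day 1 replicate 1, day 1 replicate 2, day 2 replicate 1 and day 2 replicate 2, the share of genes called higher was 1.96%, 1.28%, 6.32% and 2.9%, and the share called lower was 0.513%, 0.209%, 4.73% and 0.767%. Counts without single arrays are given below in this order and are to be read against these shares. List counts with all arrays kept are to be read against 5.27% higher and 2.73% lower, and as deposited against 2.38% and 4.55%.

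**Figure D2:**
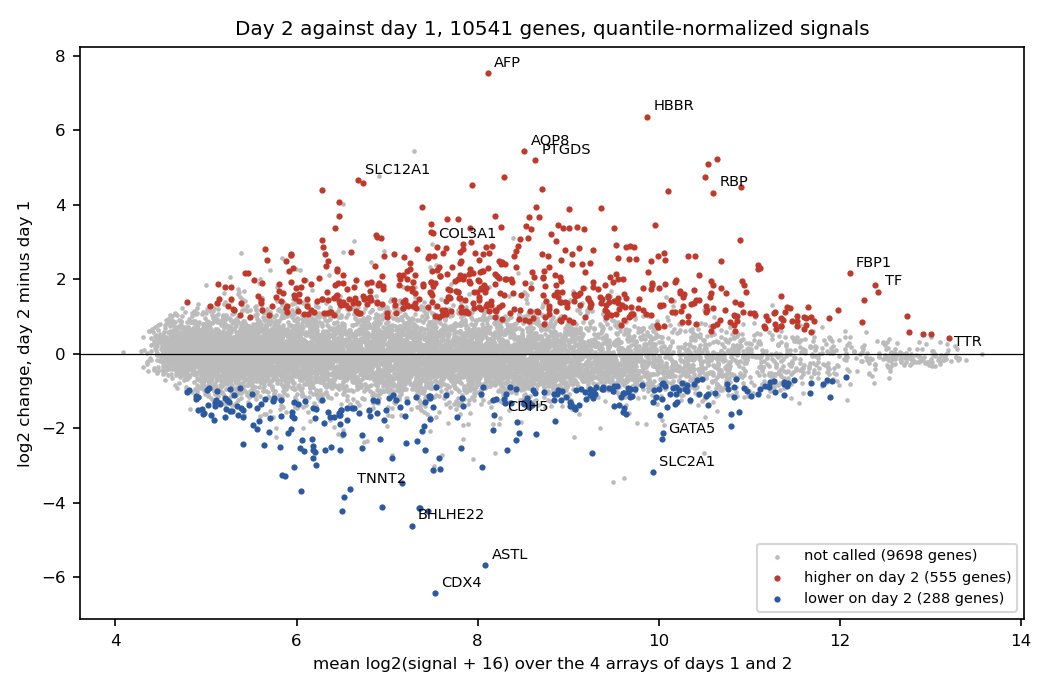
Log2 change from day 1 to day 2 (y axis) against mean log2(signal + 16) over the 4 arrays (x axis) for 10541 genes, with 555 genes called higher in red, 288 called lower in blue and the rest in grey. AFP and HBBR lie at the top, AQP8 and PTGDS just below them, and CDX4 and ASTL at the bottom, while COL3A1 and CDH5, which differed between the day 2 replicates, are not called.

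A water channel gene was among the largest rises outside the serum proteins and globins. AQP8, which encodes an aquaporin, had signals of 27.1 and 55.2 on day 1 and 3489 and 1661 on day 2, a change of 5.45 ± 0.57 (SE, adjusted p = 0.0015). It was the only one of the 20 largest rises that lay below both day 2 signals on all 4 later arrays, at 241 to 848 on days 3 and 4. PTGDS, for a lipocalin that makes prostaglandin D, stood at 49.1 and 49.8 on day 1 and 2494 and 2308 on day 2 (5.21 ± 0.54, adjusted p = 0.0015). The transcript of riboflavin-binding protein, RBP, which carries the vitamin in yolk and plasma, was already measurable on day 1 and stood at 425 and 257 on day 1 and 6675 and 7227 on day 2 (4.33 ± 0.21, adjusted p = 6.6e-05). Both day 2 signals of each of these genes lay above both day 1 signals, which the rule for naming the largest rises required.

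Enzymes made up much of the rest of the 20 largest rises. OTC, the urea cycle enzyme ornithine transcarbamylase, had 1.06 and 0.872 on day 1 and 199 and 581 on day 2 (4.40 ± 0.60, adjusted p = 0.0051), and BHMT2, of the family that remethylates homocysteine, had 56.2 and 35.3 on day 1 and 1445 and 1784 on day 2 (4.74 ± 0.43). NUDT5, a hydrolase of ADP-sugars, stood at 170.2 and 138 on day 1 and 2549 and 2524 on day 2, so its pairs of replicates were almost equal (3.91 ± 0.21, adjusted p = 8.5e-05). AADAC, an esterase of the endoplasmic reticulum, changed by 3.69 ± 0.35, PNAT10, an arylamine N-acetyltransferase, by 3.68 ± 0.31, CYP2C18, a cytochrome P450, by 3.41 ± 0.18, CDO1, which oxidizes cysteine, by 3.46 ± 0.36, and PON1, a lactonase carried on high density lipoprotein, by 3.36 ± 0.37. Membrane transport was represented by SLC12A1, a sodium-potassium-chloride cotransporter, at 5.42 and 3.48 on day 1 and 496 and 505 on day 2 (4.66 ± 0.79), and by SLC26A3, a chloride-bicarbonate exchanger, at 8.41 and 8.88 on day 1 and 267 and 344 on day 2 (3.69 ± 0.37). Others that rose were the collectin gene SFTPA2 (3.94), RGS4, a regulator of G protein signalling (3.63), MS4A4A (3.41), the serpin gene SPIA5 (3.38), the cadherin gene CDH17 (3.37), TFPI, an inhibitor of coagulation (3.34), and TIMP3, an inhibitor of metalloproteinases (3.28). Of these 20 rises 18, 14, 20 and 19 were called with each array left out. SLC12A1, with day 1 signals of 5.42 and 3.48, missed the threshold without either day 1 array or day 2 replicate 2 (adjusted p = 0.088, 0.14 and 0.052), and OTC without either day 1 array (adjusted p = 0.053 and 0.080).

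All 20 genes remained above both day 1 signals on each of the 4 arrays of days 3 and 4. Choosing the genes partly by low signals on the same day 1 arrays favours this. No share over all genes is given for it. In 5 of them, CDH17, CYP2C18, NUDT5, PNAT10 and PON1, every later array was also above both day 2 arrays. The sizes of the rises of SLC12A1, OTC and SLC26A3 depend most on the 16 added, since their day 1 signals were below 16.

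**Figure D3:**
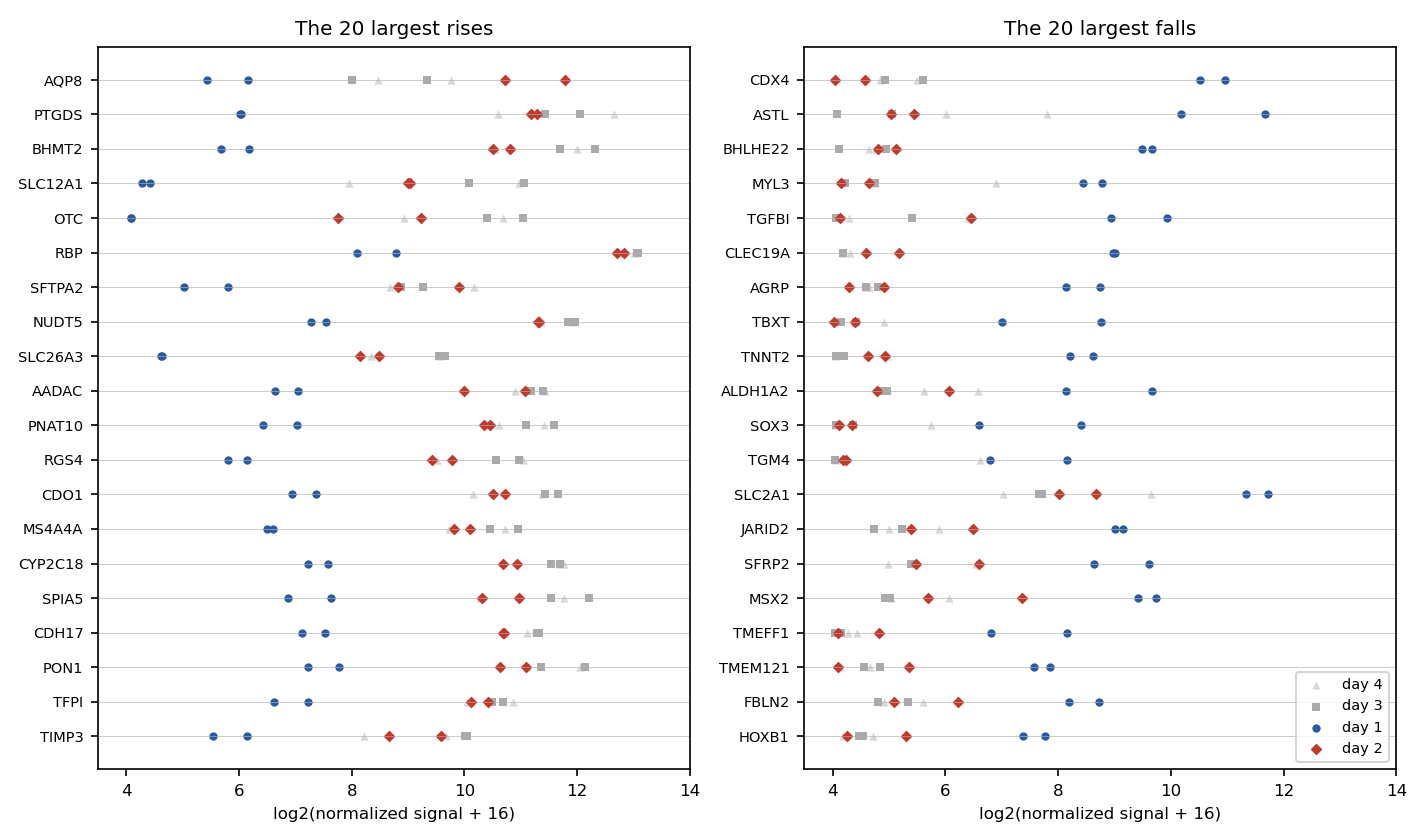
Log2(normalized signal + 16) on each array (x axis) of the 20 largest rises and the 20 largest falls (y axis), with day 1 as blue circles, day 2 as red diamonds, day 3 as grey squares and day 4 as light triangles. By the rule that chose them, the day 1 and day 2 points do not overlap for any of the 40 genes. The day 3 and day 4 points lie on the day 2 side of day 1 throughout, which the choice of genes by their day 1 signals favours.

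Among the largest falls was that of CDX4, a homeobox gene of the caudal family, active in the posterior embryo. Its signals were 1457 and 1971 on day 1 and 0.594 and 7.87 on day 2, a change of -6.43 ± 0.35 (SE, adjusted p = 8.7e-05), so both day 2 signals lay below the filter on mean signal, 9.97. ASTL, an astacin-type metalloprotease, stood at 1139 and 3257 on day 1 and 27.8 and 16.7 on day 2 (-5.68 ± 0.65, adjusted p = 0.0023). BHLHE22, a transcription factor gene read here on a probe set that can share targets with related genes, stood at 699.6 and 801 on day 1 and 12.01 and 18.9 on day 2 (-4.61 ± 0.31, adjusted p = 0.00029). Among the 20 largest rises and 20 largest falls, 2 genes were read on such probe sets. TBXT, the mesoderm factor Brachyury, stood at 113 and 419.7 on day 1 and 5.14 and 0.282 on day 2 (-3.67 ± 0.50, adjusted p = 0.0051), and its day 1 replicates differed more than those of CDX4.

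Falls also reached genes of muscle, of retinoid and signalling pathways and of glucose uptake. MYL3, a myosin light chain gene, and TNNT2, for cardiac troponin T, changed by -4.22 ± 0.59 and -3.64 ± 0.33. ALDH1A2, the enzyme that makes retinoic acid, stood at 265 and 794 on day 1 and 11.6 and 50.9 on day 2 (-3.47 ± 0.58, adjusted p = 0.011). SLC2A1, the facilitative glucose transporter GLUT1, had the highest mean day 1 signal of the 20 falls after quantile normalization, at 2574 and 3354 on day 1 and 395 and 242 on day 2 (-3.18 ± 0.68, adjusted p = 0.033). JARID2, a partner of Polycomb repressive complex 2, changed by -3.13 ± 0.42, and SOX3, a factor of early neural and epiblast cells, by -3.28 ± 0.64. The other falls were those of TGFBI (-4.15), an extracellular matrix protein, the lectin gene CLEC19A (-4.11), AGRP (-3.83), the transglutaminase gene TGM4 (-3.27), the WNT antagonist gene SFRP2 (-3.08), the homeobox genes MSX2 (-3.04) and HOXB1 (-2.80), TMEFF1 (-3.03), TMEM121 (-2.99) and the matrix gene FBLN2 (-2.80). With each array left out, 14, 9, 19 and 15 of the 20 falls were called. The fall of SLC2A1 was lost without either day 1 array and without day 2 replicate 2 (adjusted p = 0.13, 0.23 and 0.14), and so were those of TGFBI and TGM4 without any of these 3 arrays (adjusted p = 0.18, 0.13 and 0.14 for TGFBI). All 20 genes stayed below both day 1 signals on each array of days 3 and 4. Their choice partly by high day 1 signals favours this, and no share over all genes is given.

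Genes of the brush border and apical surface rose where they changed. Of 24 tested, 13 rose and 0 fell, and as deposited 7 rose, with a median of 1.10 relative to all genes on the quantile scale and 1.17 as deposited. Among digestive enzymes of the microvillus membrane, DPP4, a peptidase, had 621 and 452 on day 1 and 3178 and 3534 on day 2 (2.62 ± 0.19, adjusted p = 0.00037), ANPEP, aminopeptidase N, had 375 and 169.9 on day 1 and 1817 and 2232 on day 2 (2.91 ± 0.42, adjusted p = 0.0064), and MGAM, the maltase-glucoamylase, had 41.3 and 45.5 on day 1 and 328 and 892 on day 2 (3.24 ± 0.49, adjusted p = 0.0081). ACE, a peptidase best known from blood pressure control, changed by 1.86 ± 0.33. Every one of these pairs was higher on day 2 in both replicates. DPP4, ANPEP, MGAM and ACE were highest on day 2 replicate 2, while DAB2, given below, was highest on day 2 replicate 1. The median of the list relative to all genes was 1.14 without day 2 replicate 1 and 1.19 without day 2 replicate 2.

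Several receptors and scaffold genes of the apical membrane rose too, while 11 of the 24 members were not called. Among those 11 were VIL1, for villin, and EZR, for ezrin, which shape the actin core and the cortex of microvilli, and the membrane peptidase gene MME. VIL1 stood at 114 and 110.4 on day 1 and 55.4 and 157 on day 2, EZR at 553 and 851 on day 1 and 722 and 653 on day 2 and MME at 373 and 307 on day 1 and 272 and 253 on day 2. CUBN and LRP2, for cubilin and megalin, the large endocytic receptors of yolk sac and kidney epithelium, had 1967 and 1352 on day 1 and 3241 and 3343 on day 2 and 908 and 881 on day 1 and 1342 and 1951 on day 2, with changes of 1.01 ± 0.23 (adjusted p = 0.043) and 0.84 ± 0.20 (adjusted p = 0.046). AMN, which anchors cubilin in the membrane, stood at 243 and 90.3 on day 1 and 797 and 1356 on day 2 (2.67 ± 0.47, adjusted p = 0.015), and DAB2, the adaptor that links such receptors to clathrin, at 61.3 and 81.4 on day 1 and 754 and 412 on day 2 (2.73 ± 0.32, adjusted p = 0.0027). USH1C and CDHR2, which build the links between microvilli, changed by 2.72 ± 0.24 and 1.63 ± 0.36, MYO1A, a motor of the microvillus, by 1.12 ± 0.26, and CLRN3 by 1.75 ± 0.26. CUBN and LRP2 were not called as deposited (adjusted p = 0.11 and 0.27). Leaving out each array gave 6, 3, 12 and 6 rises, and without day 1 replicate 2 the rises of DPP4, USH1C and DAB2 were called while those of ANPEP, AMN and MGAM were not (adjusted p = 0.071, 0.13 and 0.094). Among 29 genes of epithelial junctions and keratins 2 rose, or 6.90%, against 5.27% of all genes. CDH17, an intestinal cadherin, stood at 167 and 124 on day 1 and 1644 and 1635 on day 2. PKP2, for a desmosomal plakophilin, stood at 839 and 674 on day 1 and 1838 and 1518 on day 2. CDH17 was called with each array left out.

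Transport of water and ions changed in both directions. Of 41 tested genes, 7 rose and 3 fell, and 5 and 4 did so as deposited, with medians of 0.31 and 0.33 relative to all genes. Besides AQP8, SLC12A1 and SLC26A3, the calcium-binding protein gene CALB1 rose from 4.20 and 3.70 to 39.1 and 70.5 (1.79 ± 0.27, adjusted p = 0.0082). ATP1B1, the beta subunit of the sodium pump, fell from 2333 and 2088 to 459 and 522 (-2.14 ± 0.35, adjusted p = 0.011), and CA9, a membrane carbonic anhydrase, from 1894 and 2491 to 989 and 967 (-1.14 ± 0.18, adjusted p = 0.010). The counts without single arrays were 3, 2, 8 and 5 higher and 1, 0, 5 and 2 lower, and the fall of ATP1B1 was lost without either day 1 array (adjusted p = 0.091 and 0.10).

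Carriers of sugars, amino acids and monocarboxylates were called in both directions. Of 39 tested, 2 rose and 3 fell, or 5.13% and 7.69%, against 5.27% and 2.73% of all genes. As deposited 0 rose and 4 fell, and the medians were 0.20 and 0.17 relative to all genes. SLC16A3, the lactate exporter MCT4, stood at 236 and 238 on day 1 and 43.1 and 16.7 on day 2 (-2.52 ± 0.39, adjusted p = 0.0085), so it fell together with the glucose transporter SLC2A1 described above. SLC3A1, a subunit of the cystine and basic amino acid carrier of kidney and gut, rose from 461 and 494 to 984 and 1452 (1.30 ± 0.26, adjusted p = 0.026), and SLC28A2, a nucleoside carrier, changed by 1.92 ± 0.38. Neither SLC3A1 nor SLC28A2 was called as deposited (adjusted p = 0.12 and 0.052). Leaving out each array gave 0, 0, 3 and 1 rises and 0, 0, 2 and 1 falls, and without either day 1 array the fall of SLC16A3 was not called (adjusted p = 0.069 and 0.084).

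Genes of lipid uptake, binding and lipoprotein assembly mostly rose where they changed. Of 59 tested, 15 rose and 3 fell, as deposited 7 and 2, with medians of 0.54 and 0.61 relative to all genes. MOGAT1, which makes diacylglycerol for triglyceride synthesis, stood at 265 and 294 on day 1 and 2193 and 2058 on day 2 (2.86 ± 0.18, adjusted p = 0.00022), and the long-chain acyl-CoA synthetase ACSL5 at 77.9 and 62.7 on day 1 and 606 and 746 on day 2 (3.00 ± 0.47, adjusted p = 0.0087). SCARB1, the receptor for high density lipoprotein, stood at 398 and 259.6 on day 1 and 1497 and 2557 on day 2 (2.55 ± 0.34, adjusted p = 0.0044). The groups of these 3 genes were several fold apart, with nearly equal replicates for MOGAT1.

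Fatty acid binding proteins parted ways. FABP7 rose from 888 and 870.2 to 2902 and 3132 (1.76 ± 0.14, adjusted p = 0.00049), while FABP5 fell from 85.04 and 98.6 to 13.2 and 5.16 (-2.11 ± 0.26, adjusted p = 0.0035). ACADL, an acyl-CoA dehydrogenase of mitochondrial fatty acid oxidation, stood at 2413 and 1757 on day 1 and 4839.5 and 5092 on day 2 (1.26 ± 0.17, adjusted p = 0.0043), and PLIN3, a coat protein of lipid droplets, at 10.7 and 16.3 on day 1 and 89.4 and 92.02 on day 2 (1.86 ± 0.25, adjusted p = 0.0044). MTTP, the transfer protein that loads lipid onto APOB, had 225 and 209 on day 1 and 363 and 507 on day 2 and did not pass the test (adjusted p = 0.14). Without single arrays 5, 4, 17 and 7 members of the list rose and 1, 0, 2 and 2 fell. The call of FABP5 was lost without day 1 replicate 2 (adjusted p = 0.051), as were those of ACSL5 and SCARB1 (adjusted p = 0.11 and 0.068), and that of ACSL5 was lost without day 1 replicate 1 too (adjusted p = 0.064).

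In cholesterol synthesis, 1 of 17 genes rose, or 5.88% against 5.27% of all genes, and 0 fell. The gene that rose was INSIG2, which retains the sterol sensor in the endoplasmic reticulum, from 469 and 489.7 to 959 and 1064 (adjusted p = 0.026). INSIG2 was not called as deposited. FDPS, farnesyl diphosphate synthase, had 601 and 627 on day 1 and 319 and 148 on day 2 and did not pass after quantile normalization (adjusted p = 0.073), though it was called lower as deposited (adjusted p = 0.042). The median of the list relative to all genes was -0.48, and -0.57 as deposited. With each array left out it was -0.54, -0.56, -0.73 and -0.42.

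Some enzymes of glucose production were among the rises. Of 38 genes of glycolysis, gluconeogenesis and glycogen, 7 rose and 1 fell, as deposited 4 and 1. G6PC, G6PC2, PC and FBP2, also of glucose production, were tested and not called. FBP1, fructose bisphosphatase, stood at 2224 and 1929 on day 1 and 9382 and 9361 on day 2 (2.17 ± 0.12, adjusted p = 9.9e-05). PCK1 and PCK2, the cytosolic and mitochondrial phosphoenolpyruvate carboxykinases, stood at 155 and 112 on day 1 and 1495 and 1231 on day 2 (3.22 ± 0.27) and at 229.8 and 142 on day 1 and 898 and 896 on day 2 (2.21 ± 0.33). SLC37A4, the glucose 6-phosphate carrier of the endoplasmic reticulum, had 76.8 and 113 on day 1 and 394 and 421 on day 2 (1.95 ± 0.30, adjusted p = 0.0082), and PDK4, the kinase that holds back pyruvate oxidation, changed by 1.34 ± 0.23. These 5 genes were picked among the called rises, which favours groups that do not overlap. Both day 2 signals lay above both day 1 signals in 27.4% of all genes. In all 5 genes the groups did not overlap, and FBP1 and PCK1 were called with each array left out, while the counts for the list were 3, 2, 7 and 4 higher.

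Enzymes of the urea cycle and of amino acid breakdown rose in 11 of 39 cases and fell in 1. As deposited the counts were 10 and 1, and with each array left out 9, 8, 11 and 10 rose and 1, 0, 1 and 1 fell. CPS1, carbamoyl phosphate synthetase, which feeds the urea cycle, had 32.1 and 16.95 on day 1 and 243 and 465 on day 2 (3.15 ± 0.35, adjusted p = 0.0019), and ASS1, argininosuccinate synthetase, had 779 and 603 on day 1 and 3715 and 4088 on day 2 (2.48 ± 0.19, adjusted p = 0.00049). OTC, between them in the pathway, is given above. ARG2, the mitochondrial arginase, was the fall, from 734 and 795 to 169 and 77.02 (-2.57 ± 0.33, adjusted p = 0.0041).

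The enzymes of tyrosine breakdown followed the same direction. HPD and FAH, at an early and at the last step of that pathway, stood at 323 and 284 on day 1 and 1090.5 and 1293 on day 2 (1.92 ± 0.18, adjusted p = 0.0010) and at 365 and 355 on day 1 and 1414 and 1560.1 on day 2 (2.00 ± 0.20, adjusted p = 0.0014). OAT, which links ornithine with proline and glutamate, rose from 449.7 and 406 to 1681 and 2376 (2.18 ± 0.19, adjusted p = 0.00076). Relative to all genes the median of the list was 0.57 on the quantile scale and 0.65 as deposited.

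Many detoxification and redox genes rose. Of 70 tested, 23 rose and 1 fell, and as deposited 10 and 1, with medians of 0.61 and 0.64 relative to all genes. SULT1C3, a sulfotransferase, had 1157 and 774 on day 1 and 5774 and 4317 on day 2 (2.38 ± 0.22, adjusted p = 0.00096), and SOD3, the extracellular superoxide dismutase, had 101 and 124 on day 1 and 818 and 1453 on day 2 (3.11 ± 0.31, adjusted p = 0.0013). The metallothionein gene MT3, for a protein that binds zinc and copper, rose from an already strong 3034 and 2951 to 8691 and 7591 (1.44 ± 0.17, adjusted p = 0.0024). UGT8, a UDP-galactosyltransferase, rose from 479 and 398 to 1340.5 and 1359 (1.59 ± 0.18, adjusted p = 0.0022). The fall was that of ALDH1A2. Without single arrays 11, 8, 24 and 15 genes of the list rose, and CYP2C18, SULT1C3, SOD3, UGT8 and MT3 were called each time.

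In the list of lysosome and endocytosis, 5 of 50 rose after quantile normalization, none of which was called as deposited: RAB11A, of recycling endosomes, CD63, a lysosomal membrane protein, CTSA, cathepsin A, ASAH1, acid ceramidase, and STX7, a fusion protein of late endosomes. CTSA stood at 1445 and 1129 on day 1 and 2053 and 3241 on day 2 (1.00 ± 0.23, adjusted p = 0.039). The counts without single arrays were 0, 1, 10 and 1 higher. Of the 50 genes, 28 had both day 2 signals above both day 1 signals (27.4% of all genes did). The median relative to all genes was 0.44 and 0.56. Of 93 genes of folding, translocation and export in the endoplasmic reticulum, 2 rose and 1 fell. That was 2.15% and 1.08%, against 5.27% and 2.73% of all genes. The rises, both of vesicle traffic to the Golgi, were SEC22B and SAR1B. SEC22B stood at 946 and 676 on day 1 and 1627 and 1981 on day 2, and SAR1B at 1132 and 1495 and then 2437 and 2298. The fall was SRP14, of the signal recognition particle, at 1495 and 2037 on day 1 and 947 and 840.4 on day 2. None of these 3 was called as deposited, and the median of the list relative to all genes was -0.01 and 0.09. Of 68 genes of the respiratory chain and ATP synthase 0 rose and 0 fell in the limma fit on either scale. After quantile normalization 10 were higher and 3 lower at an unadjusted p under 0.05. Of all 10541 genes, 2963 had such a p in either direction. In 35 of the 68 genes both day 2 signals lay above both day 1 signals and in 6 below (27.4% and 32% of all genes). The median of the respiratory list relative to all genes was 0.18, and 0.39 as deposited.

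Serum proteins and globins, whose rises included the largest of the limma fit, are described only in outline. Of 29 serum protein genes 22 rose, among them AFP, alpha-fetoprotein (7.54), and SERPIND1, heparin cofactor (4.37), and of 21 genes of globins and the red cell membrane 10 rose, among them HBBR (6.37). Without single arrays 14, 10, 21 and 15 serum protein genes and 7, 6, 7 and 11 globin and red cell genes rose. Globin signals on day 1 differed between the replicates, HBBR being at 305 and 17.3, with an adjusted p of 0.0040 in the limma fit. Of 12 erythroid and haematopoietic regulators 0 rose and 1 fell in that fit, CBFB, from 779 and 879 to 368 and 253 (adjusted p = 0.018). At an unadjusted p under 0.05, 0 were higher and 4 lower, while 2963 of all 10541 genes had such a p in either direction. The falls among the regulators were 3 as deposited and 0, 0, 5 and 0 with each array left out. Without day 2 replicate 1 their median relative to all genes moved from -0.72 to -1.31, while that of the globin and red cell list moved from 1.31 to 0.73.

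Endoderm and hepatic transcription factors changed in both directions. Of 43 tested 4 rose and 1 fell, or 9.30% and 2.33%, against 5.27% and 2.73% of all genes. As deposited 2 rose and 3 fell, and the median relative to all genes was 0.22. HNF4beta, a nuclear receptor closely related to HNF4A, had 43.6 and 28.9 on day 1 and 215 and 285 on day 2 (2.35 ± 0.33, adjusted p = 0.0056), and TFCP2L1, a grainyhead family factor of epithelia, had 77.3 and 76.4 on day 1 and 366 and 399.7 on day 2 (2.10 ± 0.34, adjusted p = 0.010). CEBPB, a factor of hepatic gene control, changed by 1.30 ± 0.21 and VDR, the vitamin D receptor, by 1.23 ± 0.29, neither called as deposited (adjusted p = 0.079 and 0.17). GATA5, a factor of early endoderm and heart, fell from 2131 and 2498 to 334 and 624 (-2.30 ± 0.34, adjusted p = 0.0077).

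The best-known members of the list were not called. HHEX, a homeobox factor of foregut endoderm and of vessel precursors, had 3069 and 2007 on day 1 and 911 and 49.6 on day 2, and its change of -3.34 ± 1.11 was not called (adjusted p = 0.12). Without day 2 replicate 1 it was called lower (adjusted p = 0.0078). FOXA2 stood at 573 and 404 on day 1 and 347 and 859.9 on day 2 and GATA6 at 934 and 671 on day 1 and 1027 and 1631 on day 2, and neither passed (adjusted p = 0.83 and 0.23). With each array left out 2, 0, 9 and 3 members rose and 1, 0, 3 and 1 fell, and the calls of HNF4beta, TFCP2L1 and GATA5 were lost without day 1 replicate 2 (adjusted p = 0.082, 0.11 and 0.098).

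Genes of the primitive streak and mesendoderm mostly fell where they changed. Of 35 tested 9 fell and 1 rose, as deposited 12 and 0, with medians of -0.79 and -0.81 relative to all genes. Besides CDX4, ASTL, TBXT and SFRP2, the signalling ligand gene WNT11 fell from 150.5 and 137 to 20.04 and 13.2 (-2.30 ± 0.30, adjusted p = 0.0043). BMP2, BMP7, WNT5A and WNT3A also fell. FRZB, a secreted WNT antagonist, was the rise, at 727 and 946 on day 1 and 2681 and 1924 on day 2 (1.43 ± 0.22, adjusted p = 0.0082), and it was not called as deposited (adjusted p = 0.077). CFC1, the co-receptor for Nodal, had 562 and 919.6 on day 1 and 349 and 21.1 on day 2 and was not called (adjusted p = 0.17), and was called lower without day 2 replicate 1 (adjusted p = 0.017). Leaving out each array gave 6, 4, 10 and 6 falls, and CDX4, ASTL and TBXT fell each time.

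Epiblast, germ cell and homeobox genes were called lower and not higher with all arrays kept. Of 23 pluripotency, epiblast and germ cell genes 4 fell and 0 rose, as deposited 8 and 0. LIN28A, an RNA-binding protein that holds back let-7 processing, had 491 and 826 on day 1 and 181 and 157 on day 2 (-1.83 ± 0.35, adjusted p = 0.021), PIWIL1, of the germ line piRNA pathway, had 127 and 155 on day 1 and 44.3 and 26.4 on day 2 (-1.63 ± 0.34, adjusted p = 0.031), and DDX4, the germ cell gene vasa, had 31.6 and 27.2 on day 1 and 7.92 and 7.72 on day 2 (-0.93 ± 0.22, adjusted p = 0.043). SALL4, an epiblast factor, had 245 and 748 on day 1 and 89.7 and 116 on day 2, with an adjusted p of 0.050 just above the threshold. The list held 5, 0, 3 and 0 calls with each array left out, so none of its falls was called without day 1 replicate 2 or without day 2 replicate 2.

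Among HOX and other homeobox genes 6 of 34 fell and 0 rose, as deposited 9 and 0. MSX1 and MSX2, factors of ectoderm borders and mesoderm downstream of BMP, stood at 1113 and 612 on day 1 and 193 and 155 on day 2 (-2.16 ± 0.34, adjusted p = 0.0091) and at 833 and 666 on day 1 and 149 and 35.9 on day 2 (-3.04 ± 0.52, adjusted p = 0.013). DLX5, of the ectoderm border, had 250.1 and 429 on day 1 and 78.7 and 54.7 on day 2 (-2.07 ± 0.41), GBX2 had 128 and 168 on day 1 and 46.97 and 39.1 on day 2 (-1.47 ± 0.24), and ISL1, of heart progenitors, fell as well. Markers of ectoderm and epidermis, which also hold MSX1 and DLX5, summed lower on day 2 as given above, and their part in these falls was not tested. The counts without single arrays were 3, 1, 12 and 3 lower and 0, 0, 0 and 2 higher. The median of the list relative to all genes was -0.40, and -0.81 without day 2 replicate 1. Without day 1 replicate 2 the call of MSX1 held (adjusted p = 0.027) while that of MSX2 did not (adjusted p = 0.10).

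The signalling pathways WNT, BMP, FGF, Notch and Hedgehog had 3 rises and 4 falls among 73 genes, or 4.11% and 5.48%, and 1 and 7 as deposited. FZD5, a WNT receptor, rose from 64.8 and 40.3 to 226 and 338 (2.12 ± 0.35, adjusted p = 0.011), while LEF1, the nuclear partner of beta-catenin, fell from 118 and 157 to 42.04 and 32.7 (-1.52 ± 0.27, adjusted p = 0.014). BMP5 changed by -1.72 ± 0.25, BAMBI, a decoy receptor that dampens BMP signals, by -0.82 ± 0.16 and SMAD3, a signal carrier of activin and TGF-beta, by 1.14 ± 0.24, and BAMBI and SMAD3 were not called as deposited (adjusted p = 0.066 and 0.20). Leaving out each array gave 0, 0, 3 and 1 rises and 1, 0, 9 and 2 falls.

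In muscle, vessel and mesenchyme genes the day 2 replicates often differed. Of 30 cardiac and striated muscle genes 3 fell, MYL3, TNNT2 and TNNC1, the last from 705 and 726 to 221 and 103 (-2.12 ± 0.34, adjusted p = 0.010), and 1 rose, MYL9, a myosin light chain of smooth muscle and non-muscle cells. MYL3 stood at 332 and 424 on day 1 and 8.98 and 1.72 on day 2 and TNNT2 at 377 and 279.6 on day 1 and 14.5 and 8.72 on day 2, low on both day 2 samples, including the one with high collagen signals. As deposited 5 fell and 0 rose, and with each array left out 2, 1, 4 and 3 fell, TNNT2 each time.

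Among 29 genes of endothelium and vessel precursors 0 rose and 0 fell in the limma fit, and 3 fell as deposited. At an unadjusted p under 0.05, 3 were higher and 6 lower, while 2963 of all 10541 genes had such a p in either direction. KDR, the receptor for vascular endothelial growth factor, had 139.5 and 165 on day 1 and 75.4 and 4.26 on day 2 (adjusted p = 0.098), and the chemokine gene CXCL12 had 2311 and 2402 on day 1 and 826 and 41.1 on day 2 (adjusted p = 0.11). Without day 2 replicate 1, 5 fell and the median of the list relative to all genes moved from -0.03 to -1.17, and without day 2 replicate 2, 3 rose and the median was 0.71. The direction of the list therefore turned on which day 2 sample was kept. In the list of mesenchyme, epithelial to mesenchymal transition and mesothelium 3 of 35 fell and 0 rose: POSTN, periostin, at 51.9 and 49.4 on day 1 and 8.63 and 5.30 on day 2 (-1.54 ± 0.21, adjusted p = 0.0054), TCF21 and FOXC2. It had 6 falls as deposited, 8 without day 2 replicate 1 and 1 without day 2 replicate 2, and none without either day 1 array. SNAI2, a factor of that transition, had 516 and 564 on day 1 and 904 and 8.64 on day 2 (adjusted p = 0.55), and VIM, vimentin, had 923 and 1419 on day 1 and 1729 and 339 on day 2 (adjusted p = 0.65), so both day 1 signals lay between those of day 2.

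Matrix genes rose and fell at about the shares of all genes. Of 75 genes 4 rose and 2 fell, or 5.33% and 2.67%, against 5.27% and 2.73% of all genes. As deposited 2 rose and 4 fell, where 2.38% and 4.55% of all genes did. FBN2, for the microfibril protein fibrillin of the embryo, fell from 308 and 338 to 46.7 and 50.5 (-2.39 ± 0.25, adjusted p = 0.0016), alike on both day 2 samples, and FBLN2 fell as given above. TIMP3 rose from 54.5 and 30.6 to 749 and 390.2, and HSPG2, for the basement membrane proteoglycan perlecan, from 95.4 and 46.7 to 219 and 331 (1.77 ± 0.33, adjusted p = 0.019). Without single arrays 2, 0, 4 and 3 members rose and 2, 1, 5 and 2 fell. In the insulin-like growth factor axis 1 of 18 genes rose and 1 fell, or 5.56% each, against 5.27% and 2.73% of all genes. GHR, the growth hormone receptor, rose from 54.6 and 45.6 to 256 and 183 (adjusted p = 0.010). IRS2, an adaptor of the insulin receptor, fell from 149 and 198 to 61.4 and 39.9 (adjusted p = 0.019). GHR was not called as deposited (adjusted p = 0.059), and both calls were lost without either day 1 array (adjusted p = 0.11 and 0.16 without replicate 2).

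Most genes of cell division had lower signals on day 2, but few were called. Of 71 genes of mitosis and chromosome segregation 61 had both day 2 signals below both day 1 signals (32% of all genes did), while 0 had them above (27.4% of all genes). CENPT, of the centromere, was the gene called, from 351 and 358 to 151 and 104 (-1.39 ± 0.27, adjusted p = 0.023). The share called lower was 1.41%, against 2.73% of all genes. As deposited 6 fell, where 4.55% of all genes did. TOP2A, topoisomerase II alpha, had 834 and 694 on day 1 and 317 and 329 on day 2 and an adjusted p of 0.054. The median of the list relative to all genes was -0.76, and -0.80 as deposited.

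In DNA replication and S phase 2 of 59 genes fell, or 3.39%, against 2.73% of all genes. As deposited 8 fell, where 4.55% of all genes did. In 45 of the 59 both day 2 signals lay below both day 1 signals (32% of all genes). GMNN, geminin, which limits replication to a single round, stood at 682 and 706 on day 1 and 306 and 259.5 on day 2 (-1.25 ± 0.22, adjusted p = 0.015), and CHAF1A, of the chromatin assembly factor, at 248 and 259 on day 1 and 116 and 89.98 on day 2 (-1.19 ± 0.25, adjusted p = 0.032). The median relative to all genes was -0.61 and -0.69. With each array left out 0, 0, 5 and 0 mitosis genes and 0, 0, 5 and 0 replication genes were called lower.

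Splicing factors fell in 10 of 88 cases, with 1 rise, and 5 and 0 as deposited. HNRNPAB had 2170.4 and 2644 on day 1 and 965 and 868 on day 2 (-1.37 ± 0.17, adjusted p = 0.0037), HNRNPR had 2529 and 2902 on day 1 and 1500.1 and 970.1 on day 2 (-1.16 ± 0.22, adjusted p = 0.020), and HNRNPA1 had 4804 and 4780.1 on day 1 and 2941 and 2488 on day 2 (-0.82 ± 0.17, adjusted p = 0.032), all RNA-binding proteins of nuclear pre-mRNA. The rise was that of PTBP3, a polypyrimidine tract binding protein, from 57.5 and 53.3 to 129 and 143 (adjusted p = 0.026). With each array left out 1, 0, 22 and 1 fell, and HNRNPAB missed the threshold without day 1 replicate 2 (adjusted p = 0.055). The median relative to all genes was -0.57 and -0.44.

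Few genes of ribosomes and proteasomes were called. Of 65 cytosolic ribosomal protein genes 0 fell and 1 rose, RPS27L, a ribosomal protein paralog induced by p53, from 523 and 499 to 1374 and 1531 (1.48 ± 0.19, adjusted p = 0.0039). RPS27L was not called as deposited, where 0 genes of the list rose and 0 fell. The median of the ribosomal list relative to all genes was -0.09 after quantile normalization and 0.20 as deposited, so its direction depended on the scale. Of 67 mitochondrial ribosomal genes MRPS16 rose and MRPS18A fell, and of 38 proteasome genes PSMA3 and PSMD14 fell, none of the 4 called as deposited. Both day 2 signals lay below both day 1 signals in 42 of the 65 cytosolic ribosomal and 24 of the 38 proteasome genes (32% of all genes). The proteasome median relative to all genes was -0.31, and -0.22 as deposited. Among 43 genes of apoptosis and stress response, GADD45A, a p53 target of growth arrest, rose from 766 and 786 to 1268 and 1321 (adjusted p = 0.044, as deposited 0.45), and TNFRSF21, a death receptor, fell from 495 and 526 to 194 and 192 (adjusted p = 0.027). Both calls were lost with any 1 of the 4 arrays left out.

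**Figure D4:**
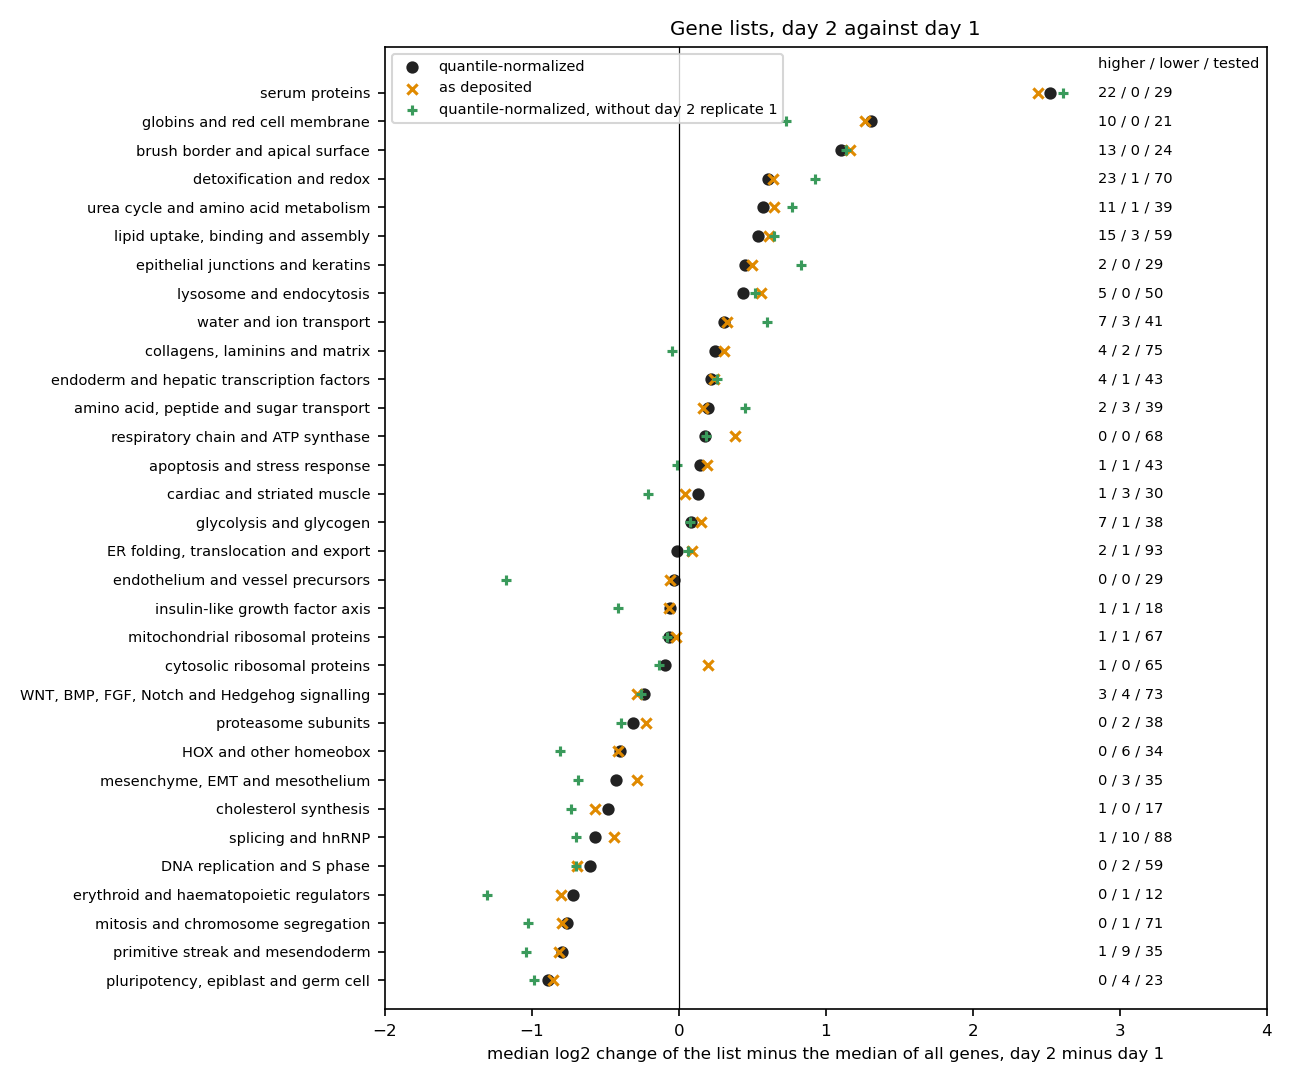
Median log2 change from day 1 to day 2 of each of 32 gene lists minus the median of all genes (x axis), with dots for quantile-normalized signals, crosses for deposited signals and plus signs for quantile-normalized signals without day 2 replicate 1; the figures at the right give genes called higher, called lower and tested. The brush border list lies at 1.10, 1.17 and 1.14, while the endothelium list lies at -0.03, -0.06 and -1.17.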

How the data were processed

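The authors deposited signal intensities of 8 Affymetrix Chicken Genome Arrays, on a linear scale. The submitters' processing notes name MAS5. Neither version nor target intensity is given in the sources used here. Detection calls were not used. Of 38535 probe sets 96 controls were dropped. Of the other 38439, 27168 carried 1 gene symbol in the platform annotation, 177 several and 11094 none, and 26853 of those symbols were found in the chicken reference table.

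The intensities were quantile-normalized over 8 arrays and log2(signal + 16) was fitted with limma 3.58.1 in R 4.3.3 (a mean per day, eBayes with an intensity trend), two-sided, with Benjamini-Hochberg adjustment at 0.05 over the 23063 probe sets with mean signal above the 40th percentile (9.97). Deposited signals were fitted likewise. The fit was also run on simulated arrays. Their noise was independent and, for each probe set, equally wide on all 8 arrays, while the real day 2 replicates differed more than those of day 1. The simulation therefore gives no error rate for these data.

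The comparison, its lists (32 by role, 9 of markers) and the rule for named genes were chosen with earlier results of these data known. Named were the 20 largest rises and falls called on both scales outside the serum and globin lists. The 20 rises and 20 falls also had to have groups that did not overlap, the same sign on both scales and no placeholder symbol. Up to 5 members of a list with the smallest adjusted p (3 for serum proteins and globins) were named too. So were up to 4 of the brightest members of a marker list. Further genes, among them VIL1, EZR, MME, MGAM, AMN, ACE, CDHR2, MYO1A, CPS1, ARG2, SCARB1, ACSL5, ISL1, BMP2, BMP7, WNT5A, WNT3A and those of the closing observations, were chosen after their values were seen. Alternatives were another normalization, trend, pseudocount, filter or set of arrays, array weights, a replicate block, the mean of a gene's probe sets and each array left out. The 2 arrays of each day limit the precision.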

Additional observations from a re-analysis of the deposited data

How the results depend on the processing

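The 854 rises and 470 falls over probe sets became 371 and 860 on deposited signals, 169 and 53 on those without day 1 replicate 2, and 365 and 335 on those without day 2 replicate 2, the last pair of settings added after the data were seen. Falls came to 286 with no filter, 305 with only the 4 arrays of days 1 and 2 and 305 with a pseudocount of 1. Rises came to 656 with only the 4 arrays of days 1 and 2. Leaving out 1 array gave 183 to 1011 rises and 40 to 817 falls, and the lone sample left for a day was then assumed to vary like the other groups. A shift to the same median, no or a robust trend, a pseudocount of 64, a 60th percentile filter and array weights kept both counts within 1.5 times. The cause of these shifts was not tested. Deviations of same-numbered replicates correlated at r = -0.11 between days 1 and 2, at 0.38 between days 2 and 3 and at -0.07 to 0.05 between the other days, so the numbers were not taken to pair samples. The replicate block gave 759 rises and 336 falls, and the crossed pairing, added after the data were seen, 835 and 420. Of the 20 largest rises and falls none changed sign with an array left out. The rule that their groups must not overlap made this nearly certain, so it lends them no support. Signals near the filter, as of SLC12A1 or OTC on day 1, limit the size of a change, and 2 arrays a day limit all of it.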

Other observations

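Among the genes called in no list, 419 higher and 223 lower, several belonged to processes that the lists did not cover, and the genes named here were chosen after their values were seen. Genes of nucleolar ribosome assembly were among the falls. NCL, nucleolin, stood at 5422 and 5929 on day 1 and 2858 and 2252 on day 2 (-1.15 ± 0.18, adjusted p = 0.0084), BMS1, a GTPase of the small subunit precursor, at 1829.7 and 1823 on day 1 and 691 and 469 on day 2 (-1.65 ± 0.25, adjusted p = 0.0076), and NOP56, a core protein of box C/D particles, at 1838 and 1397 on day 1 and 894 and 635 on day 2 (-1.07 ± 0.25, adjusted p = 0.041). NOP2, NOLC1, HEATR1, NAT10 and DDX21 changed by -1.37, -1.16, -1.21, -1.49 and -1.40. The chaperonin genes CCT3, CCT4 and CCT6A fell as well, CCT4 from 4600.3 and 4761 to 2391 and 2085 (adjusted p = 0.011). MYCN, a transcription factor of growth, stood at 305 and 883 on day 1 and 119.6 and 49.03 on day 2 (-2.52 ± 0.58, adjusted p = 0.042), and EZH2, the methyltransferase of Polycomb repressive complex 2, at 1451 and 1329 on day 1 and 401 and 483 on day 2 (-1.62 ± 0.32, adjusted p = 0.023). The choice among called falls favours groups that do not overlap. Of all genes, 32% had both day 2 signals below both day 1 signals. The groups of these genes did not overlap, and none of the named calls held without day 1 replicate 2 (adjusted p from 0.087 for BMS1 to 0.27 for MYCN).

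Among the rises were enzymes of creatine synthesis, of tryptophan breakdown and of peroxisomes, and plasma proteins beyond the serum list. GATM and GAMT, the enzymes of the successive steps of creatine synthesis, stood at 431 and 578 on day 1 and 3188 and 3123 on day 2 (2.62 ± 0.28, adjusted p = 0.0016) and at 374 and 307 on day 1 and 1973 and 2175 on day 2 (2.56 ± 0.17, adjusted p = 0.00029), and both rises were called with each array left out. KMO and HAAO, of the kynurenine pathway, changed by 2.05 ± 0.29 and 2.63 ± 0.32. HSD17B4, AMACR, SCP2, PHYH and CROT, of peroxisomal fatty acid breakdown, changed by 1.30, 1.12, 0.69, 1.49 and 0.81, and none of these 5 was called as deposited. The coagulation genes F5, F7, F12 and PROZ changed by 2.22, 2.62, 1.36 and 2.49, and the complement and lectin pathway genes C1R, C8B, MASP2 and MBL2 by 1.67, 1.47, 1.61 and 2.84. MBL2, mannose-binding lectin, stood at 67.2 and 51.9 on day 1 and 489 and 559 on day 2, and its rise was called with each array left out.

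A few genes were high on day 2 replicate 2 and low on replicate 1. ADH1C, an alcohol dehydrogenase, stood at 34.9 and 29.5 on day 1 and 49.8 and 1049.9 on day 2, MAP1LC3C, of autophagosomes, at 139 and 67.6 on day 1 and 266 and 3418 on day 2, and RSPO3, an amplifier of WNT signals, at 644 and 731 on day 1 and 58.4 and 909 on day 2. In the opposite direction AQP1, the water channel of red cells and endothelium, stood at 12.4 and 2.88 on day 1 and 5422 and 56.7 on day 2 and LUM, the matrix proteoglycan lumican, at 10.01 and 3.66 on day 1 and 2833 and 32.3 on day 2. None of these 5 was called with all arrays kept. Without day 2 replicate 1 ADH1C was higher than on day 1, and without day 2 replicate 2 AQP1 was.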
